A study of Mus musculus with 140 samples.

Results

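The renin-angiotensin system was followed in the mouse kidney through the transcripts of 8 genes, taken by name from the 34255 genes of the count table. A row was found for 7 of them, Ren1, Akr1b7, Agt, Ace, Agtr1a, Mme and Enpep, and Agtr1b was not analysed here. The study examined 28 male wild-type mice of strain C57BL6/OlaHsd in 7 groups of 4: mice at 4, 24 or 72 h of CLP (ligation and puncture of the cecum, which causes abdominal sepsis), sham-operated mice at the same times, and healthy mice at 0 h. Each mouse gave 5 libraries made from total RNA with Lexogen QuantSeq, which reads transcripts near their 3′ end. Of these 140 libraries, 28 came from whole kidney without microdissection and the others from laser-microdissected glomeruli, arterioles, peritubular capillaries and post-capillary venules. The labels give neither the age of the mice nor the area captured, and a microdissected library can hold RNA of neighbouring cells.

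Renin, encoded by Ren1, is secreted by juxtaglomerular cells in the wall of the afferent arteriole at the glomerular pole, and it cuts angiotensinogen, the product of Agt, to angiotensin I. Angiotensin converting enzyme, encoded by Ace and carried by endothelium and by the brush border of the proximal tubule, trims this peptide to angiotensin II, which constricts arterioles and promotes sodium retention through the receptors encoded by Agtr1a and Agtr1b. Aminopeptidase A (Enpep) shortens angiotensin II to angiotensin III, and neprilysin (Mme) cuts angiotensin I and other peptides. Akr1b7 encodes an aldo-keto reductase that in mice is made by renin cells and by the adrenal cortex. Most circulating angiotensinogen is made by the liver, and the kidney proximal tubule makes some of its own. Mice of the C57BL/6 background carry Ren1 without its duplicate Ren2.

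Ren1 (ENSMUSG00000070645) lies on the plus strand of chromosome 1 from 133350510 to 133360325 in build GRCm38, Agt (ENSMUSG00000031980) on the minus strand of chromosome 8 from 124556534 to 124569706, and Ace (ENSMUSG00000020681) on the plus strand of chromosome 11 from 105967945 to 105989964. The 300 bases around the start of each are shown because these are the members whose whole-kidney transcripts passed the test at 72 h after CLP. They run from 250 bases before to 50 bases after the start in RefSeq (GRCm38.p6), at chr1:133350424-133350723 on the plus strand, chr8:124569657-124569956 on the minus strand and chr11:105967698-105967997 on the plus strand. Capitals mark the TATA box letters TATAAA and, in Ren1, the letters TAATAAATC of its proximal promoter element.
Ren1: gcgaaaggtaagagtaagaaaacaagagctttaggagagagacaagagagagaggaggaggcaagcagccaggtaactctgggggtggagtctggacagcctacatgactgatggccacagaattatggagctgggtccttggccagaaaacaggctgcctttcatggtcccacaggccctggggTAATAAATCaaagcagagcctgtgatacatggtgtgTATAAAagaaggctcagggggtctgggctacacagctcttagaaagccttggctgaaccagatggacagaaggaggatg
Agt: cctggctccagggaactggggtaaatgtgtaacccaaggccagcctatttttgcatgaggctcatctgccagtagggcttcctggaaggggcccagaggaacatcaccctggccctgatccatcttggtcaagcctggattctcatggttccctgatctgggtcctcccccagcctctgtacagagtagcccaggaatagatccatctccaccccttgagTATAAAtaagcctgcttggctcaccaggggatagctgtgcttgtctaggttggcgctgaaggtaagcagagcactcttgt
Ace: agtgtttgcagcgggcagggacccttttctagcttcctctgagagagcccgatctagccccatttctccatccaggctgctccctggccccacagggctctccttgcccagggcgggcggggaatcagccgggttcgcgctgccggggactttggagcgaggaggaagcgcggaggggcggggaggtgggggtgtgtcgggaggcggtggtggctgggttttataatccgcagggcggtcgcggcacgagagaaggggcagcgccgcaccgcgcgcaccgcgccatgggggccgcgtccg

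The Ren1 window held TATAAA 29 bases and TAATAAATC 65 bases before the start, and the Agt window held TATAAA 30 bases before it. Read on both strands of 32851 RefSeq promoter windows of the same length, TATAAA occurred in 13.6% and TAATAAATC in 0.174%. The Ace window held TATAAA on the opposite strand, 31 bases before the start. The letters TTCNNNGAA, the spaced repeat that STAT factors recognise, occurred in 8.30% of all windows and in the Agt window as TTCCTGGAA, 172 bases before the start. TGACGTCA, the cyclic AMP response element, was in 1.79% of all windows and in none of these 3. Ace has a further annotated start 7241 bases downstream, and the counts, given per gene, do not separate its transcripts. These matches describe letters, and no binding was measured.

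The other 4 measured members lie on chromosomes 6 (Akr1b7, ENSMUSG00000052131, 34412334 to 34423142, plus strand), 13 (Agtr1a, ENSMUSG00000049115, 30336441 to 30382867, plus strand) and 3 (Mme, ENSMUSG00000027820, 63241537 to 63386030, plus strand, and Enpep, ENSMUSG00000028024, 129269175 to 129332720, minus strand). Their RefSeq windows, where given, held no TAATAAATC. Genes annotated on the opposite strand overlap Akr1b7 (Gm13857, at its 3′ end), Ace (Gm11651) and Enpep (Gm42628), and the use of strand in counting is not given in the sources used here. Gm13857 had at most 3.82 CPM (counts per M of library counts) in any library.

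Libraries held 4.24 to 18.3 M counts (M for mega), and values below are CPM of each library's own total. Fewer genes were detected at 24 and 72 h than in healthy mice and at 4 h: the medians were 18311 and 19396.5 in whole kidney, 11717 and 13800.5 in glomeruli, 8081 and 12611.5 in arterioles, 6982 and 12632.5 in peritubular capillaries and 10788.5 and 12876.5 in venules. The biological coefficient of variation between mice was 0.241 in whole kidney and 1.40 to 1.94 in the microdissected compartments, so a member that did not pass in those compartments was not thereby shown to be unchanged. The compartments matched their names in part: in healthy mice the summed level of 5 podocyte markers was 8210 to 9920 CPM in glomeruli and 837 to 1540 CPM in arterioles, and that of 7 smooth muscle and pericyte markers was 14200 to 20900 CPM in arterioles. In peritubular capillaries, however, 8 proximal tubule markers summed to 61600 to 80500 CPM, above the 39000 to 42800 CPM of whole kidney, and 6 endothelial markers to 291 to 881 CPM, against 363 to 431 CPM in whole kidney. In venules the proximal tubule markers summed to 22600 to 27800 CPM and the endothelial markers to 521 to 878 CPM. Erythrocyte markers there summed to 16300 to 39500 CPM.

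The first comparison asked where each transcript lies in the healthy kidney. Renin transcripts were concentrated in glomerular libraries. Ren1 had 923, 1640, 945 and 1960 CPM in the glomeruli of the 4 healthy mice, against 148, 3.13, 47 and 184 CPM in venules, 5.44, 34.5, 16.8 and 2.4 CPM in peritubular capillaries and 3.76, 14.1, 2.95 and 4.17 CPM in arterioles. Every glomerular library was above every library of the 3 others, and the venular libraries ranged most widely. Relative to the mean of the 3 other compartments, the log2 fold change in glomeruli was 5.49 ± 0.67 (SE, edgeR quasi-likelihood test with the mouse as a block, Benjamini-Hochberg adjusted p = 2.78e-05). In arterioles Ren1 was lower than in the 3 others, by −4.01 ± 0.94 (adjusted p = 0.00927), a call lost without healthy mouse 1 (adjusted p = 0.106).

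Akr1b7 shared the glomerular site. It had 10.9, 41.8, 26.2 and 20.7 CPM in glomeruli and at most 0.327 CPM in any healthy library of the other compartments, where 9 of 12 libraries had no count of it. Its log2 fold change in glomeruli was 9.01 ± 1.92 (adjusted p = 0.00131), a fitted value that depends on how counts of 0 are treated. Cyp11a1, Star and Hsd3b1, markers of the adrenal cortex, summed to at most 6.66 CPM in these glomerular libraries and to 0.561 to 1.14 CPM in whole kidney.

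Enpep was also highest in glomeruli, where podocytes are known to carry aminopeptidase A. Its 4 glomerular values were 100, 189, 152 and 86.4 CPM, against 11.4, 1.04, 12.1 and 6.17 CPM in venules, 6.3, 1.46, 13.7 and 0.253 CPM in peritubular capillaries and 0.653, 1.22, 71.8 and 0.618 CPM in arterioles. The glomerular values lay above all others, and 1 arteriolar library stood far above the rest of its group. The fold change in glomeruli was 4.74 ± 1.28 (adjusted p = 0.0162), a call lost without healthy mouse 2 (adjusted p = 0.165) or 4 (adjusted p = 0.0612) and in the fit without the mouse as a block (adjusted p = 0.0653).

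Agt marked the peritubular capillary libraries, which are rich in tubular RNA. It had 26.4, 61.9, 15.3 and 70.6 CPM there, against 3.98, 0.811, 7.54 and 0.237 CPM in venules, at most 3.27 CPM in glomeruli and at most 0.567 CPM in arterioles. All 4 values exceeded those of the other microdissected compartments. The log2 fold change was 5.94 ± 1.54 (adjusted p = 0.00851), a call lost without healthy mouse 2 (adjusted p = 0.0679) or 4 (adjusted p = 0.0793). Its level in the whole kidneys of the same mice was 44.5 ± 11.8 CPM (SD, n = 4).

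The converting enzyme and the receptor were spread more evenly. Ace averaged 94.9 ± 67.8 CPM in arterioles, 52.8 ± 28.7 CPM in peritubular capillaries, 8.79 ± 10.5 CPM in glomeruli and 7.30 ± 10.2 CPM in venules (SD, n = 4). Of the 4 arteriolar libraries 3 had 96.7 to 158 CPM and 1 had 0.49 CPM, and no neighbours in this order differed beyond that spread (arterioles against the 3 others 2.77 ± 1.16, adjusted p = 0.143). Agtr1a, which mesangial and smooth muscle cells carry, had 162, 104, 161 and 142 CPM in glomeruli, while arterioles ranged from 0.34 to 270 CPM, venules from 0.463 to 82.8 CPM and peritubular capillaries from 4.25 to 39.7 CPM (glomeruli against the 3 others 2.02 ± 1.10, adjusted p = 0.405). Mme was at 66.1 to 171 CPM in glomeruli and 42.8 to 95.4 CPM in peritubular capillaries, against 4.4 to 125 CPM in venules and 0.961 to 124 CPM in arterioles, and passed in no compartment.

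**Figure D1:**
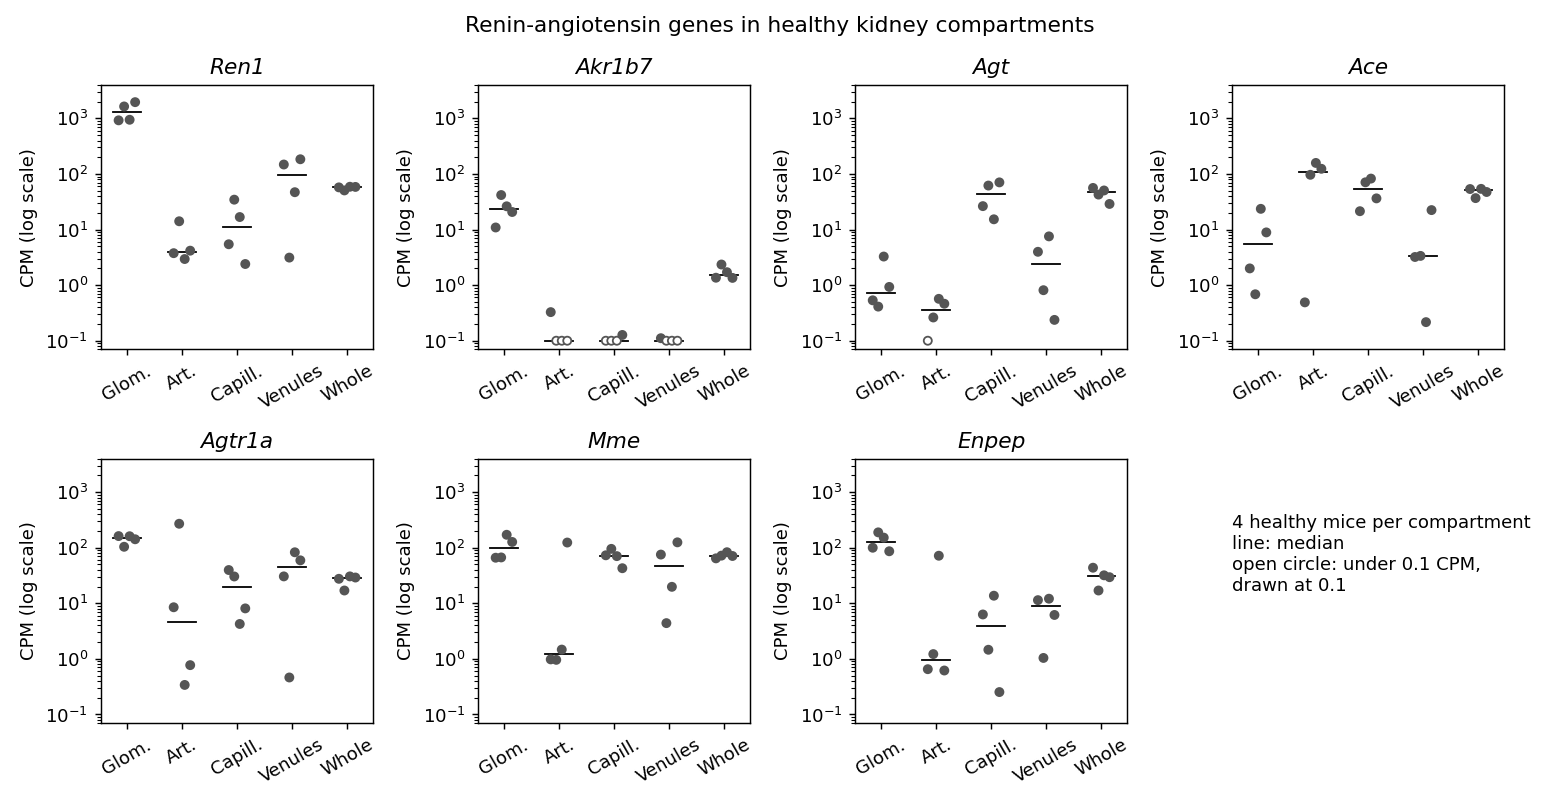
CPM of the 7 members in each healthy mouse (points, log axis) by compartment, with a line at the median and open circles, drawn at the low end of the axis, for values under it. The 4 glomerular points of Ren1 (923 to 1960 CPM), Akr1b7 and Enpep lie above those of the other microdissected compartments. The 4 peritubular capillary points of Agt also lie above those of the other microdissected compartments. Whole-kidney Agt, at 28.9 to 56.1 CPM, lies within the range of peritubular capillaries.

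In all, 3 of the 7 members passed in glomeruli (4.18% of all genes tested there passed), 1 in arterioles (7.32%), 1 in peritubular capillaries (6.13%) and 0 in venules (0.591%). Between pairs of compartments, Ren1 was higher in glomeruli than in arterioles by 7.13 ± 1.15 (adjusted p = 0.000725, 2% of genes passed in this pair) and than in peritubular capillaries by 6.13 ± 1.10 (adjusted p = 0.00118, 4.89%). Against venules the glomerular excess of 3.22 ± 0.96 did not pass (adjusted p = 0.111), as for the 6 other members in that pair (1.55%). Arterioles held less Ren1 than venules by −3.91 ± 1.06 (adjusted p = 0.0408, 4.2%) and less Agt than peritubular capillaries by −7.25 ± 2.43 (adjusted p = 0.0453, 9.23%). Between peritubular capillaries and venules 0 of 7 members passed (0.583%), with Ren1 at −2.90 ± 1.03 (adjusted p = 0.358). In that pair an unadjusted p under 0.05 was found for 2 members and 1034 of 12179 genes. DESeq2 called 700 genes there, Ren1 and Agt among them. In glomeruli against venules an unadjusted p under 0.05 was found for 3 members and 1453 genes. DESeq2 called 1056 genes in this pair, Ren1, Akr1b7 and Enpep among them. In venules against the 3 others 0 members passed in DESeq2 or had an unadjusted p under 0.05, against 761 and 1188 of all genes.

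The main question was how the transcripts changed with CLP against a sham operation, and whole kidney gave the firmest values. Renin transcripts rose at 72 h and angiotensinogen transcripts at 24 and 72 h, while those of the converting enzyme fell at 24 and 72 h. At 4 h 1 of 7 members passed (2.24% of all genes passed), at 24 h 2 (5.28%) and at 72 h 3 (3.89%). CLP and sham values did not overlap for 1, 2 and 4 members at these times, against 8.12%, 8.62% and 10.6% of all genes. The median log2 fold change of all genes was at most 0.03 at any of the 3 times. Whole-kidney RNA is a mixture, in which fewer cells of a type and less RNA per cell cannot be told apart.

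Ren1 in whole kidney had 101, 150, 181 and 182 CPM in the 4 CLP mice at 72 h, against 63.9, 78.7, 50.8 and 77.7 CPM in the sham mice. All CLP values lay above all sham values, and the healthy mice, at 50.6 to 58.9 CPM, were near the sham mice. The log2 fold change was 1.12 ± 0.26 (adjusted p = 0.0111), lost without CLP mouse 4 (adjusted p = 0.0564) or sham mouse 3 (adjusted p = 0.0555) and when only the 24 and 72 h mice were fitted (adjusted p = 0.0523). At 24 h the CLP mice had 79.1, 71.5, 100 and 150 CPM and the sham mice 66, 35.2, 54.2 and 86.3 CPM. These ranges overlapped, and the difference of 0.73 ± 0.26 did not pass (adjusted p = 0.123), although it did without sham mouse 4 (0.96, adjusted p = 0.0428). At 4 h CLP mice had 55.8 to 102 CPM and sham mice 48.7 to 72.9 CPM (0.44 ± 0.26, adjusted p = 0.646). The CLP effect at 72 h exceeded that at 4 h by 0.67 ± 0.37, which did not pass (adjusted p = 0.486).

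Akr1b7, the companion of renin in these cells, rose at 4 h. Its level was 3.22, 4.37, 4.67 and 3.99 CPM in CLP mice, against 1.46, 2.62, 1.85 and 0.733 CPM in sham mice. The groups did not overlap, and the log2 fold change was 1.35 ± 0.36 (adjusted p = 0.0374). The counts behind it were 30 to 65 in CLP and 8 to 24 in sham libraries. The call was lost without any 1 of 7 of the 8 mice (adjusted p 0.052 to 0.173), and held without sham mouse 2. It was also lost with no filter (adjusted p = 0.0522), with the 8 libraries fitted alone (adjusted p = 0.0813) and with only the healthy and 4 h mice fitted (adjusted p = 0.0706). At 24 h CLP mice had 2.7 to 7.26 CPM and sham mice 2.31 to 3.57 CPM (0.77 ± 0.35, adjusted p = 0.254), and at 72 h CLP mice had 3.44 to 5.02 CPM and sham mice 1.86 to 4.65 CPM (0.24 ± 0.35, adjusted p = 0.866). Adrenal cortex markers stayed at or below 1.96 CPM in sum in every whole-kidney library.

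Agt gave the most stable rise. At 24 h it had 97.6, 130, 93.8 and 106 CPM in CLP mice, against 49.7, 40.2, 38.9 and 43.7 CPM in sham mice. Every CLP value was far above every sham value, and the log2 fold change was 1.29 ± 0.19 (adjusted p = 2.59e-05). At 72 h CLP mice had 55.5, 77.8, 80.3 and 63.4 CPM and sham mice 32.2, 27.7, 32.2 and 43.7 CPM, again without overlap (0.95 ± 0.19, adjusted p = 0.00204). At 4 h CLP mice, at 43.8 to 63 CPM, overlapped with sham mice, at 28.8 to 56.3 CPM (0.26 ± 0.19, adjusted p = 0.757). The CLP effect was larger at 24 h than at 4 h by 1.03 ± 0.27 (adjusted p = 0.0386), a difference lost without any 1 of 10 of the 16 mice (adjusted p 0.0531 to 0.0912). Markers of the hepatocyte, the main source of circulating angiotensinogen, summed to 201 to 351 CPM in CLP mice and 198 to 342 CPM in sham mice at 24 h, and these ranges overlapped. At 72 h they summed to 459 to 798 CPM in CLP mice and 219 to 501 CPM in sham mice, mostly Ttr, while Alb averaged 3.07 CPM in CLP mice and 11.1 CPM in sham mice. The part of hepatocyte RNA in the change of Agt was not tested.

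Ace moved the other way. At 72 h it had 22.4, 16.6, 12.2 and 11.9 CPM in CLP mice, against 45.5, 48, 39.8 and 36 CPM in sham mice. Every CLP mouse was below every sham mouse, and the healthy mice had 36.8 to 54 CPM. The log2 fold change was −1.52 ± 0.18 (adjusted p = 8.85e-07). At 24 h CLP mice had 22.5, 20.5, 26.8 and 14.6 CPM and sham mice 37.1, 39.6, 24.7 and 26.1 CPM, which overlapped. That fall of −0.62 ± 0.18 passed (adjusted p = 0.0311) and was lost without CLP mouse 2 (adjusted p = 0.0825) or 4 (adjusted p = 0.131), without sham mouse 1 (adjusted p = 0.0929) or 2 (adjusted p = 0.16), with library totals as the only scaling (adjusted p = 0.0656), with the 8 libraries fitted alone (adjusted p = 0.213) and with only the 24 and 72 h mice fitted (adjusted p = 0.108). At 4 h Ace was at 46.6 to 58.1 CPM in CLP mice and 46 to 58.9 CPM in sham mice (0.05 ± 0.17, adjusted p = 0.993). The effect at 72 h differed from that at 4 h by −1.56 ± 0.25 (adjusted p = 0.000228).

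Proximal tubule and leukocyte markers moved with these results. At 72 h 8 proximal tubule markers, of which Kap holds most counts, summed to 16100 to 22700 CPM in CLP mice and 46100 to 52200 CPM in sham mice, with 3 of 8 lower by test. At 24 h the sums were 23500 to 30300 CPM in CLP mice and 42800 to 47300 CPM in sham mice, with 4 of 8 lower. The 5 leukocyte markers summed to 515 to 723 CPM in CLP mice and 61.1 to 77.7 CPM in sham mice at 72 h, when 5 of 5 rose, and to 192 to 251 CPM in CLP mice and 69.2 to 97.9 CPM in sham mice at 24 h, when 3 of 5 rose. Smooth muscle and pericyte markers, the cell family that renin cells belong to, summed to 166 to 208 CPM in CLP mice and 157 to 188 CPM in sham mice at 72 h, and 0 of 7 passed at any of the 3 times (an unadjusted p under 0.05 for 0, 1 and 0). Mesangial markers summed to 92.1 to 128 CPM in CLP mice and 76.1 to 87.7 CPM in sham mice at 24 h, and to 86.1 to 109 CPM in CLP mice and 64.7 to 82.4 CPM in sham mice at 72 h, with 1 of 4 and 0 of 4 past the test. Fibroblast markers summed to 576 to 722 CPM in CLP mice and 371 to 480 CPM in sham mice at 24 h, and to 487 to 631 CPM in CLP mice and 329 to 461 CPM in sham mice at 72 h, with 1 of 4 and 2 of 4 higher. Endothelial markers at 72 h summed to 416 to 498 CPM in CLP mice and 380 to 403 CPM in sham mice, with 0 of 6 past the test. The sums of these 3 lists did not overlap between CLP and sham mice at the times given. What part these cell types had in the changes of Ren1, Agt and Ace was not tested.

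**Figure D2:**
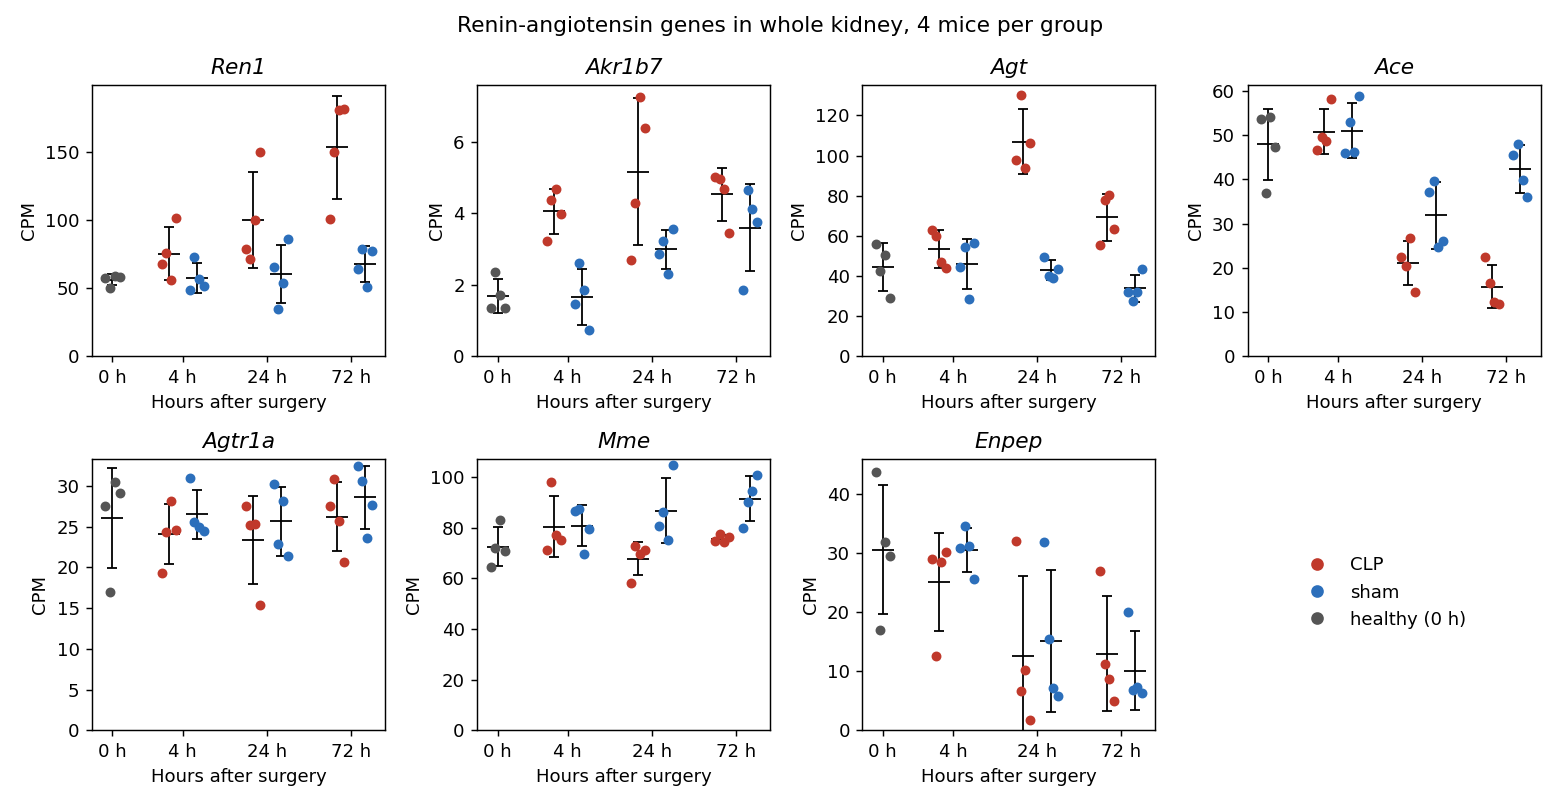
CPM of the 7 members in whole kidney, by group and time, with 1 point per mouse, a short line at the mean and bars of 1 SD. Agt is higher in CLP than in sham mice at 24 and 72 h, Ren1 is higher at 72 h (101 to 182 CPM in CLP and 50.8 to 78.7 CPM in sham mice) and Ace is lower at 72 h (11.9 to 22.4 CPM in CLP and 36 to 48 CPM in sham mice).

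The receptor and both peptidases did not pass in whole kidney. Agtr1a ranged from 15.4 to 30.9 CPM in all CLP mice and from 21.4 to 32.5 CPM in all sham mice, with differences of −0.08 ± 0.17, −0.17 ± 0.17 and −0.20 ± 0.17 at 4, 24 and 72 h. Mme had 58.1, 72.8, 69.5 and 71.1 CPM in CLP mice at 24 h, against 80.8, 86.2, 75.2 and 105 CPM in sham mice. At 72 h it had 74.9, 77.4, 74.3 and 76.5 CPM in CLP mice, against 79.8, 90.4, 94.6 and 101 CPM in sham mice. All CLP values were below all sham values at both times, but the differences of −0.38 ± 0.13 (adjusted p = 0.104) and −0.35 ± 0.13 (adjusted p = 0.178) missed the threshold. Enpep varied most among mice of a group: at 24 h it had 32, 6.57, 10.2 and 1.69 CPM in CLP mice and 31.9, 15.4, 7.13 and 5.78 CPM in sham mice (−0.29 ± 0.62, adjusted p = 0.893). The mouse numbered 1 had the highest Enpep value in both groups at 24 h, in both at 72 h and among healthy mice.

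Across times, 1 of 7 members had a CLP effect that differed between 24 and 4 h (Agt, 1.84% of all genes), 1 between 72 and 4 h (Ace, 2.52%) and 0 between 72 and 24 h (0.509%). Of the last comparison, Ace alone had an unadjusted p under 0.05, at −0.89 ± 0.25 (adjusted p = 0.123), among 1237 such genes, and DESeq2 called 0 members.

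The sham operation itself was compared with healthy mice. In whole kidney 0 of 7 members passed at 4 h (0.937% of all genes), 0 at 24 h (6.41%) and 2 at 72 h (8.44%). An unadjusted p under 0.05 was found for 0 members and 1364 genes at 4 h and for 3 members and 3742 genes at 24 h. DESeq2 called 0 members and 222 genes at 4 h, and 1 member, Ace, and 1501 genes at 24 h. At 72 h Akr1b7 had 1.86, 4.65, 4.13 and 3.76 CPM in sham mice, against 1.36, 2.35, 1.71 and 1.35 CPM in healthy mice (1.20 ± 0.37, adjusted p = 0.0419), with 3 of 4 sham mice above all healthy mice. Mme had 79.8, 90.4, 94.6 and 101 CPM in sham mice and 64.4, 72.1, 83 and 71 CPM in healthy mice (0.45 ± 0.13, adjusted p = 0.0353). Both calls were lost with library totals as the only scaling and with no filter on low counts, that of Akr1b7 without any 1 of 6 of the 8 mice (adjusted p 0.0874 to 0.121) and that of Mme without any 1 of 5 (adjusted p 0.0741 to 0.121). Enpep, at 20, 6.75, 7.26 and 6.3 CPM in sham mice at 72 h against 43.7, 17, 31.9 and 29.5 CPM in healthy mice, did not pass (−1.49 ± 0.62, adjusted p = 0.127). Sham mice at 24 and 72 h and healthy mice also lie on different sides of the gap in detected genes, and the 2 cannot be told apart. In the microdissected compartments 0 members passed for sham against healthy mice at 4, 24 or 72 h. The share of all genes that passed was 0.00686%, 0% and 0.00686% in glomeruli, 0%, 0.0657% and 0.0903% in arterioles, 0%, 0% and 0% in peritubular capillaries and 0%, 0.0222% and 0.0739% in venules. An unadjusted p under 0.05 was found for 347 to 1813 genes in these comparisons. It was found for 1, 2 and 2 members in arterioles at 4, 24 and 72 h. In glomeruli 1 member had it at 24 h, in venules 1 at 72 h and in peritubular capillaries 0. DESeq2 called Akr1b7 in arterioles at 24 h, Akr1b7 and Mme in arterioles at 72 h and Akr1b7 in venules at 72 h. It called 1048 and 1052 of 12183 genes in arterioles at 24 and 72 h and 1238 of 13530 in venules at 72 h.

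Of the 4 microdissected compartments, only peritubular capillaries had a member that passed for CLP against sham mice, at 72 h. In glomeruli 0 of 7 members passed at 4 h (0.11% of all genes), 24 h (0.137%) or 72 h (0.0343%). In arterioles 0 of 6 passed at 4 h (0.00821%), 24 h (0.0164%) or 72 h (0%). In venules 0 of 7 passed at 4 h (0%), 24 h (0.0813%) or 72 h (0.0443%). In peritubular capillaries 0 of 6 passed at 4 h (0%), 0 at 24 h (0.051%) and 1 at 72 h (22.3%). At an unadjusted p under 0.05, 772 to 1803 genes of 14586 were below that value in glomeruli, 418 to 2100 of 12183 in arterioles, 768 to 1715 of 13530 in venules and 384 to 4344 of 11772 in peritubular capillaries. Among members an unadjusted p under 0.05 was found once in glomeruli, once in arterioles, 2 times in venules and 2 times in peritubular capillaries over the 3 times. DESeq2 called 1 member in glomeruli, 2 in venules and 3 in peritubular capillaries, and 0 in arterioles. Of all genes tested it called 303 to 986 in glomeruli and 357 to 1216 in venules. It called 85 to 4038 in peritubular capillaries and 139 to 1728 in arterioles. At 72 h in peritubular capillaries DESeq2 called 2 of 6 members and 4038 of 11772 genes.

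Renin transcripts in glomeruli, their main site, did not pass for CLP against sham mice at any time, which does not show them to be unchanged. Ren1 had 3000, 2090, 3350 and 1420 CPM in the glomeruli of CLP mice at 72 h, against 1720, 2530, 1640 and 1250 CPM in sham mice. The groups overlapped, and the difference of 0.42 ± 0.32 did not pass (adjusted p = 0.932). At 4 h it was −0.12 ± 0.32 and at 24 h 0.07 ± 0.32. At the same 72 h the whole kidneys differed by 1.12 ± 0.26, and the 2 estimates come from separate fits and were not tested against each other. Glomerular Akr1b7 had 30.1, 45.8, 52.1 and 26.7 CPM in CLP mice at 4 h, against 24.7, 33.9, 5.76 and 0.323 CPM in sham mice (1.36 ± 1.26, adjusted p = 1), which overlapped. At 24 h its CLP values split into 138 and 122 CPM in mice 2 and 4 and 0.697 and 0 CPM in mice 1 and 3.

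Neprilysin gave the widest glomerular difference at 24 h. Mme had 86.6, 324, 341 and 292 CPM in CLP mice, against 125, 124, 128 and 83.5 CPM in sham mice. Of the CLP mice 3 stood above all sham mice and 1 lay among them, and the difference of 1.26 ± 0.43 did not pass in edgeR (adjusted p = 0.315) but did in DESeq2 (1.30, adjusted p = 0.0419). Podocytes carry neprilysin, and podocyte markers summed to 4880 to 8680 CPM in CLP mice and 6360 to 10200 CPM in sham mice at this time. Other sums in the same libraries did not overlap: mesangial markers had 1220 to 1890 CPM in CLP mice and 819 to 1060 CPM in sham mice, leukocyte markers 1120 to 2210 CPM in CLP mice and 184 to 388 CPM in sham mice, and proximal tubule markers 1250 to 6680 CPM in CLP mice and 9020 to 14500 CPM in sham mice. Their part in the Mme values was not tested. Glomerular Ace at 4 h was at 5.91, 0.794, 11.5 and 0.612 CPM in CLP mice and 16.5, 12.1, 23.3 and 14.5 CPM in sham mice, which did not overlap (5.13% of all genes there did not), and did not pass (−1.72 ± 2.04, adjusted p = 1). Endothelial markers in these libraries summed to 1550 to 3930 CPM in CLP mice and 4420 to 5980 CPM in sham mice, also without overlap, and their part in the Ace values was not tested.

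The glomerular receptor and aminopeptidase A overlapped between groups throughout. Agtr1a had 193, 326, 56 and 110 CPM in CLP mice at 24 h, against 134, 164, 170 and 120 CPM in sham mice (0.30 ± 0.45, adjusted p = 0.976), with the CLP values spread on both sides of the sham values. At 72 h it had 69.4 to 223 CPM in CLP mice and 90.7 to 243 CPM in sham mice (−0.36 ± 0.45, adjusted p = 1). Enpep had 66.2, 5.86, 0 and 98.8 CPM in CLP mice at 24 h and 75, 41.6, 140 and 45.4 CPM in sham mice (−0.85 ± 0.90, adjusted p = 0.914). In the same CLP libraries Agt had 32.7, 74.4, 0 and 0 CPM, and the sham libraries had 0, 51.9, 17.1 and 41.2 CPM.

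**Figure D3:**
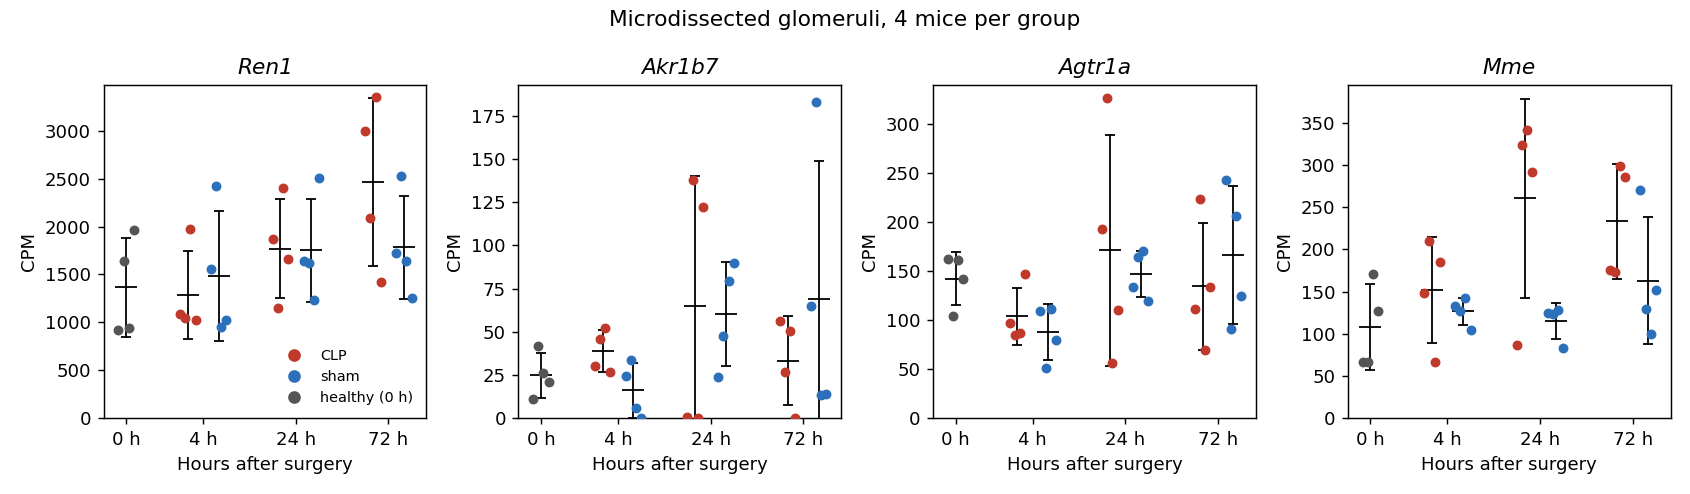
CPM of Ren1, Akr1b7, Agtr1a and Mme in glomeruli, by group and time, with 1 point per mouse, a short line at the mean and bars of 1 SD. Ren1 overlaps between CLP and sham mice at each time, and 3 of 4 CLP mice lie above all sham mice for Mme at 24 h (292 to 341 CPM against 83.5 to 128 CPM in sham mice).

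In peritubular capillaries Agt was higher in CLP mice in most libraries. At 4 h it had 80.3, 97.8, 59.8 and 89.2 CPM in CLP mice, against 13.4, 7.79, 13.7 and 3.78 CPM in sham mice. Every CLP library was above every sham library and 3 of the 4 were above every healthy library (15.3 to 70.6 CPM), but the difference of 2.91 ± 1.65 did not pass (adjusted p = 1). At 24 h the values were 132, 309, 163 and 443 CPM in CLP mice and 122, 8.7, 25.2 and 73.6 CPM in sham mice, also without overlap (1.99 ± 1.59, adjusted p = 0.699). At 72 h CLP mice had 0.176, 285, 66 and 596 CPM and sham mice 66, 21, 0 and 14.8 CPM, so 1 CLP library fell below 3 sham libraries (3.07 ± 1.66, adjusted p = 0.169, and 3.56 with an adjusted p of 0.0083 in DESeq2). In venules at 72 h CLP mice had 32.2, 200, 21.2 and 10.1 CPM and sham mice 9.7, 0, 7.18 and 8.68 CPM, without overlap (3.18 ± 1.63, adjusted p = 0.417). Members without overlap numbered 1 of 6 at 4 h, 1 at 24 h and 2 at 72 h in peritubular capillaries, where 3.46%, 2.57% and 7.99% of all genes did not overlap, and 1 of 7 in venules at 72 h, where 2.49% did not. In the peritubular capillary libraries proximal tubule markers summed to 60000 to 75800 CPM in CLP mice and 69000 to 79100 CPM in sham mice at 4 h, and to 28100 to 32400 CPM in CLP mice and 56100 to 90500 CPM in sham mice at 72 h. In venules at 72 h proximal tubule markers summed to 12900 to 18600 CPM in CLP mice and 24600 to 35500 CPM in sham mice. Leukocyte markers there summed to 379 to 975 CPM in CLP mice and 64 to 155 CPM in sham mice. Neither venular sum overlapped between the groups. What part these sums had in the Agt values was not tested. In arterioles Agt was too rare to be tested, with at most 0.567 CPM outside 1 sham library of 30 CPM at 4 h.

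**Figure D4:**
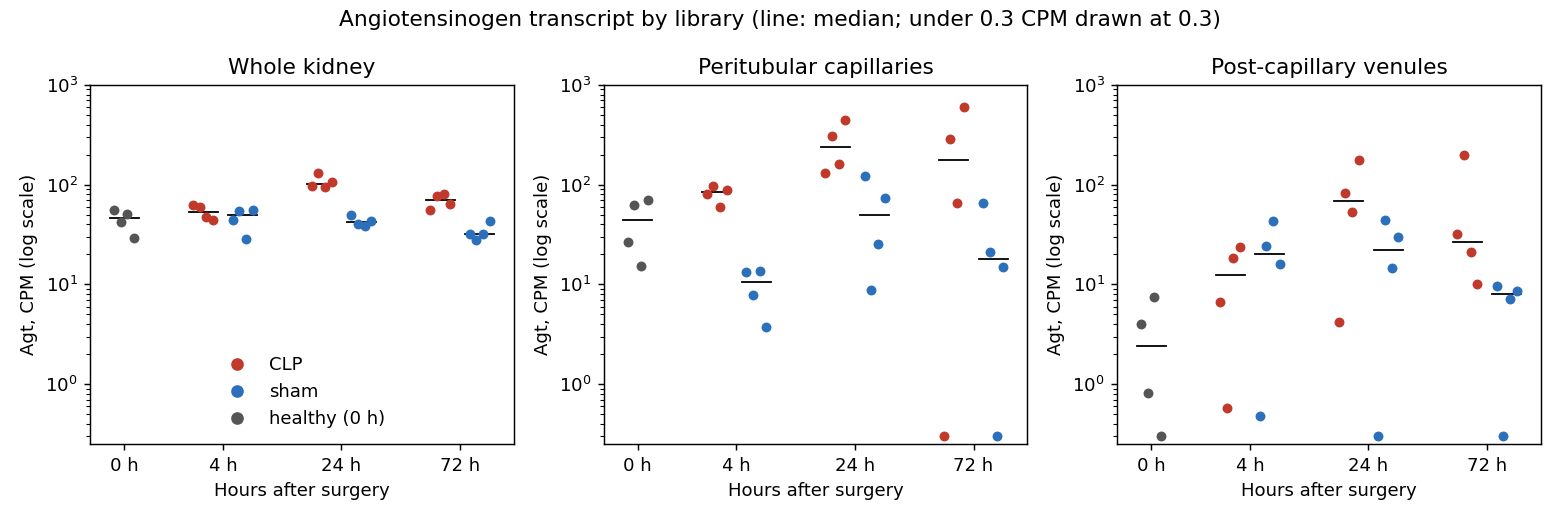
CPM of Agt (log axis) in whole kidney, peritubular capillaries and venules by group and time, with 1 point per mouse, a line at the median and values below the axis drawn at its low end. In peritubular capillaries at 4 h the CLP mice sit between 59.8 and 97.8 CPM and the sham mice between 3.78 and 13.7 CPM, and in whole kidney the groups separate at 24 and 72 h.

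The receptor was the member that passed in peritubular capillaries at 72 h. Agtr1a had no count in the 4 CLP libraries, against 19, 22, 39.6 and 59.3 CPM in the sham libraries (adjusted p = 0.0339). With 3 counts per library as the limit that a count of 0 allows, it was at least 66.2-fold lower, a bound that covers counting error only. The call was lost without CLP mouse 1 (adjusted p = 0.071), 3 (adjusted p = 0.0742) or 4 (adjusted p = 0.0673), with no filter, with the 8 libraries fitted alone and with only the 24 and 72 h mice fitted. These 4 CLP libraries detected 2949, 5595, 3281 and 4020 genes, against 9816, 7681, 7137 and 8321 in the sham libraries, and 22.3% of all genes passed. Their endothelial markers summed to 0.705, 142, 224 and 0 CPM, against 373, 548, 377 and 833 CPM in sham mice. What part the lower detection had was not tested. Ren1 in the same libraries had 3.88, 25.5, 0 and 0 CPM in CLP mice and 45.4, 58.8, 104 and 54.3 CPM in sham mice, without overlap, and did not pass (−3.29 ± 2.37, adjusted p = 0.356).

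In arterioles and venules no member passed for CLP against sham mice, and values often differed widely within a group. Arteriolar Ren1 at 24 h had 82.6, 7.94, 30.6 and 78.6 CPM in CLP mice and 468, 49.2, 0 and 0.0996 CPM in sham mice, and the groups overlapped. Arteriolar Akr1b7 had 0, 0, 0.329 and 411 CPM in CLP mice at 72 h and 9.66, 73.8, 75.3 and 0 CPM in sham mice, and the library with 411 CPM had no count of Ren1 or of the adrenal cortex markers. Arteriolar Ace at 24 h had 232, 133, 146 and 104 CPM in CLP mice and 60.9, 61.5, 64.3 and 3.69 CPM in sham mice. These did not overlap (2.3% of all genes there did not), but the difference of 1.68 ± 1.44 did not pass (adjusted p = 0.857), and endothelial markers summed to 3710 to 4630 CPM in CLP mice and 2400 to 3920 CPM in sham mice. Venular Ren1 at 72 h had 19, 97.5, 134 and 23.2 CPM in CLP mice and 0.0776, 20.8, 28.7 and 0.106 CPM in sham mice (2.33 ± 1.21, adjusted p = 0.445). Proximal tubule and leukocyte sums in these libraries, given above, did not overlap between the groups, and their part in the Ren1 values was not tested. Venular Akr1b7 had no count in the 4 CLP libraries at 24 h, against 0, 0, 5.78 and 18.8 CPM in sham libraries, and at 72 h it had 18.7 CPM in 1 CLP library and no count in the other 3 or in the sham libraries. Both comparisons passed in DESeq2 and not in edgeR, and each rests on 1 or 2 libraries. Venular Mme at 24 h had 146, 0.308, 68.3 and 21.6 CPM in CLP mice, around the narrow 41.3 to 44.8 CPM of sham mice (0.30 ± 1.06, adjusted p = 1). In peritubular capillaries at 24 h Enpep had no count in the 4 CLP libraries and 16.3, 0, 14.4 and 4.41 CPM in the sham libraries, which passed in DESeq2 and not in edgeR (adjusted p = 0.112).

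The CLP effect was also compared between the 4 microdissected compartments directly, with the 32 libraries of each time in 1 fit and the mouse as a block. At 72 h the effect on Ren1 differed between compartments (adjusted p = 0.000974, where 1.48% of all genes passed), as the 1 of 7 members that passed. The log2 fold changes of CLP over sham mice for Ren1 at this time were 2.33 in venules, 0.42 in glomeruli, 0.34 in arterioles and −3.29 in peritubular capillaries, and none of the 4 passed alone. The difference held without any 1 of the 8 mice (adjusted p 1.1e-05 to 0.0496), and it was lost in the fit without the mouse as a block (adjusted p = 0.501) and in DESeq2 (adjusted p = 0.14). It rests on venular and peritubular libraries that ranged from 0 to 134 CPM, and the lower detection in the peritubular libraries of CLP mice, given above, moved with it. What part that had was not tested. Agtr1a did not pass at 72 h with the mouse as a block (adjusted p = 0.152) and passed without it (adjusted p = 0.027). At 4 h 0 of 7 members passed (0.021% of all genes), at 24 h 0 (0.161%), with an unadjusted p under 0.05 for 0 members and 0 called by DESeq2 at either time. The genes at an unadjusted p under 0.05 numbered 830 of 14272 at 4 h and 686 of 13635 at 24 h.

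**Figure D5:**
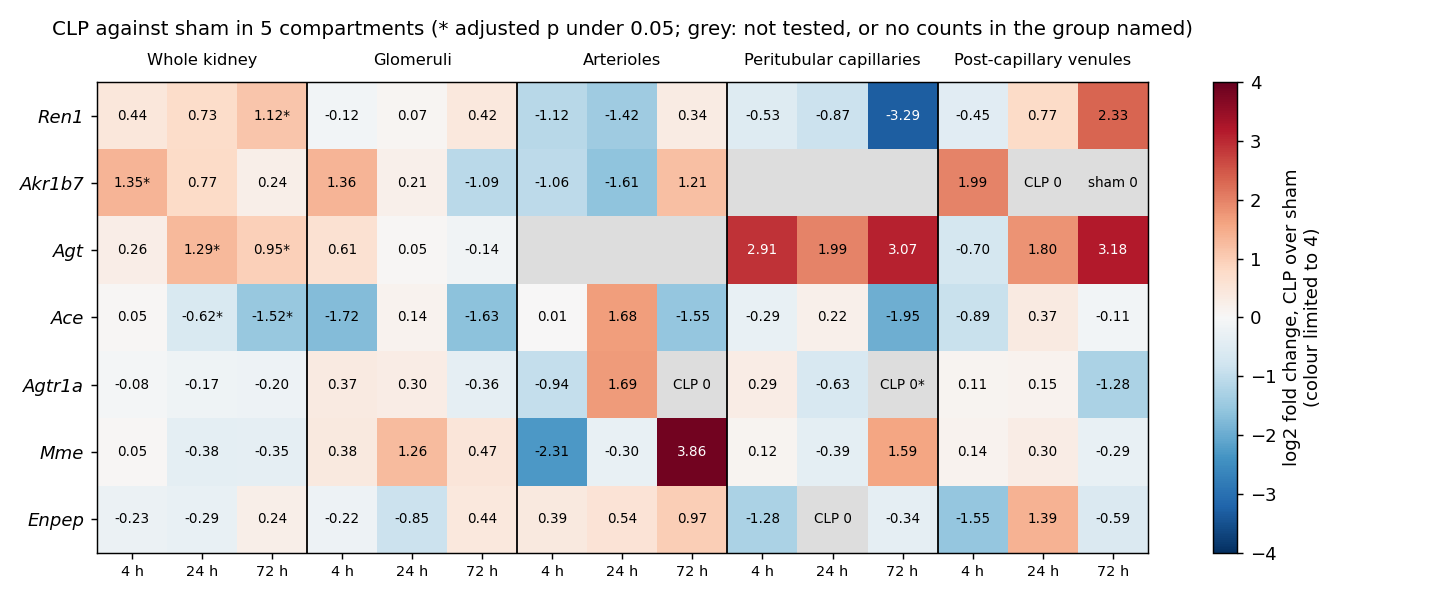
Log2 fold change of CLP over sham mice for each member, compartment and time (4, 24 and 72 h), with an asterisk where the adjusted p was under 0.05 and words in place of a value where a group had no counts. Asterisks stand on Akr1b7, Agt, Ace and Ren1 in whole kidney and on Agtr1a in peritubular capillaries at 72 h.

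The pathway's other genes were counted in whole kidney beside the 2.24%, 5.28% and 3.89% of all genes that passed at 4, 24 and 72 h. Of 17 measured further genes of angiotensin and kinin processing, 0 passed at 4 h, 1 rose at 24 h and 0 passed at 72 h, with median log2 fold changes of 0.02, 0.13 and 0.02 against 0.00, 0.02 and 0.03 over all genes. An unadjusted p under 0.05 was found for 1, 2 and 3 of them. The riser was Kng2, which encodes a kininogen, the precursor of bradykinin, at 354 CPM in CLP mice and 232 CPM in sham mice on average (0.59 ± 0.14, adjusted p = 0.00844). Of 22 measured genes of renin cells and renin release, 0 passed at 4, 24 or 72 h, 1, 3 and 4 had an unadjusted p under 0.05, and their medians were −0.06, 0.02 and 0.13. Of 4 macula densa genes, with medians of 0.19, −0.46 and −0.01, 1 fell at 24 h and 0 passed at 4 or 72 h, when 0 had an unadjusted p under 0.05. It was Slc12a1, the sodium, potassium and chloride carrier of the thick ascending limb, which had 379 CPM in CLP mice and 580 CPM in sham mice (−0.65 ± 0.17, adjusted p = 0.0158).

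Of 10 measured genes of aldosterone action, 0 passed at 4 h, 1 rose at 24 h and 2 rose at 72 h, with a median of 0.07 at each time and an unadjusted p under 0.05 for 2 at 4 h. Among all genes 1.69%, 3.04% and 1.74% passed as higher at 4, 24 and 72 h. Sgk1, a kinase induced by aldosterone and by glucocorticoids, had 81.8 CPM in CLP mice and 31.4 CPM in sham mice at 24 h (1.38 ± 0.27, adjusted p = 0.00181), and 80.4 CPM in CLP mice and 35.4 CPM in sham mice at 72 h (1.13 ± 0.27, adjusted p = 0.0127). Tsc22d3, another gene of both hormones, had 62.6 CPM in CLP mice and 31.4 CPM in sham mice at 72 h (0.94 ± 0.21, adjusted p = 0.00659). Of 7 brush border peptidases, 0 passed at 4 h, when 0 had an unadjusted p under 0.05, 1 fell at 24 h and 2 fell at 72 h, with medians of 0.08, −0.25 and −0.54. Among all genes 0.556%, 2.24% and 2.15% passed as lower at 4, 24 and 72 h. Mep1b, a meprin subunit, had 57.1 CPM in CLP mice and 185 CPM in sham mice at 24 h (−1.73 ± 0.19, adjusted p = 4.46e-07) and 96.7 CPM in CLP mice and 215 CPM in sham mice at 72 h (−1.22 ± 0.19, adjusted p = 6.87e-05). Mep1a, the other meprin subunit, had 647 CPM in CLP mice and 1131 CPM in sham mice at 72 h (−0.88 ± 0.11, adjusted p = 3.42e-06). Anpep, the aminopeptidase N of the brush border, was at 15.2 CPM in CLP mice and 20.9 CPM in sham mice at 72 h and did not pass (−0.56 ± 0.24, adjusted p = 0.271).

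For sham against healthy mice in whole kidney, Tsc22d3 rose at 4 h (130 CPM in sham and 31.0 CPM in healthy mice, 2.08 ± 0.22), and Rnpep, an aminopeptidase, fell at 24 h (−0.47 ± 0.14) and 72 h (−0.56 ± 0.14). Of the renin cell list, Rgs5 fell (−0.63 ± 0.19), Rbpj fell (−0.66 ± 0.21) and Nr2f6 rose (0.57 ± 0.16) at 72 h. Hsd11b2, which shields the aldosterone receptor from cortisol and corticosterone, rose at 24 h (0.47 ± 0.13) and 72 h (0.40 ± 0.13), and Dpep1, a brush border dipeptidase, rose at 72 h (0.57 ± 0.14). Of all genes, 0.937%, 6.41% and 8.44% passed for sham against healthy mice at 4, 24 and 72 h. These list genes were named because they passed, so they do not describe their lists.

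Each member's pattern over the 35 group means (7 groups in 5 compartments) was also set beside that of 17802 genes that averaged 5 CPM or more in some group, as a description by Pearson's r of log2 means that share libraries and depth. Ren1 was most like Clic3 (r = 0.906), Tmem54 (0.905) and Amph (0.900), and Akr1b7 was most like Ntrk2 (0.893), Usp13 (0.870) and Sfrp2 (0.858). Agt was most like Umod, the uromodulin of the thick ascending limb (0.879), Pxmp2 (0.841) and Agpat3 (0.837). Agtr1a was most like Ramp3, a receptor activity-modifying protein (0.883), Rnf144a (0.853) and Robo2 (0.851). Mme was most like Vamp8 (0.902), Col4a3 (0.840), a collagen chain of the glomerular basement membrane, and Trappc6a (0.798). The highest values for the other two were lower, with Bdh1 (0.725), Sorl1 (0.723) and Col19a1 (0.680) for Ace and Nsf (0.773), Spindoc (0.769) and Wtap (0.768) for Enpep.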

How the data were processed

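The authors deposited raw counts of reads per Ensembl gene, with no normalisation, and gene symbols. The submitters' processing notes list STAR 2.7, HTSeq 0.13, featureCounts, SAMtools 1.9, FastQC 0.11.8 and MultiQC 1.7 and the builds GRCm38.p6 and GRCm39, while the build aligned to, the counting program and the handling of reads that match several genes are not given in the sources used here. For the 20 libraries of healthy mice the table gives 4 h and the labels 0 h, which was used. Positions are from GENCODE M21 (GRCm38), which held 34185 of the 34255 genes.

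Printed levels are CPM, counts per M (mega) of each library's total. Groups were compared with the two-sided quasi-likelihood test of edgeR 4.0.16 in R 4.3.3 (robust fit, TMM scaling, filterByExpr), and an adjusted p under 0.05 over all genes passed. All 28 libraries of each compartment shared 1 fit. Healthy compartments (16 libraries) and the difference of CLP effects between compartments (32 libraries at each time) were fitted with the mouse as a block. DESeq2 1.42.0, other scalings, no filter, smaller fits, a block by number and leaving out each mouse were alternatives. Mice of different groups are different animals that share a number. No 2 libraries held identical counts. The fit by group was tested on simulated counts for whole kidney and glomeruli only, drawn with the levels and spread estimated from those libraries. The other compartments and the fits with the mouse as a block were not tested in this way. The members and the 16 gene lists were chosen with earlier results of these data known. By rule, all members were named, up to 4 passing genes of a list per whole-kidney comparison, and the 3 genes most like each member. A passing gene of these lists is not reported here. Anpep at 72 h and Alb and Ttr were named outside this rule, after their values were seen. Limits for counts of 0 (3 counts per library) cover counting error only.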

Additional observations from a re-analysis of the deposited data

Results flagged for a closer look

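In 33 of the 203 groups of 4 libraries with a member at a mean of at least 5 CPM, 1 library stood far from the other 3 by Dixon's rule. Chance alone meets that rule in about 1 group in 20 if values are normally distributed, which was not tested for these CPM. Most of the 33 groups were microdissected, where libraries of 1 group varied widely.

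In arterioles Ren1 had, in 1 library of the group, 76.9 CPM in CLP mice at 4 h (others 2.68 to 4.31 CPM), 468 CPM in sham mice at 24 h (0 to 49.2 CPM) and 14.1 CPM in healthy mice (2.95 to 4.17 CPM). Akr1b7 likewise had 46.5 CPM in CLP mice and 93.3 CPM in sham mice at 4 h, 33.6 CPM in CLP mice at 24 h and 411 CPM in CLP mice at 72 h, against at most 5.19 CPM in any other library of these groups. Agtr1a reached 30.3 CPM in 1 CLP and 55.9 CPM in 1 sham library at 4 h, 26.9 CPM in 1 sham library at 72 h and 270 CPM in 1 healthy library. Mme reached 174 CPM in 1 CLP library at 24 h (no count in the others), 44.2 CPM in 1 sham library at 4 h and 124 CPM in 1 healthy library. Enpep reached 102 CPM in 1 CLP library at 72 h and 71.8 CPM in 1 healthy library, and Agt 30 CPM in 1 sham library at 4 h. Ace was low in 1 sham library at 24 h, at 3.69 CPM (others 60.9 to 64.3 CPM).

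In peritubular capillaries of CLP mice at 4 h, the library of mouse 4 stood out for Ren1 (66 CPM) and Agtr1a (49.9 CPM) and that of mouse 1 for Enpep (25.6 CPM). At 72 h that of mouse 2 stood out for Ren1 (25.5 CPM) and Ace (47.4 CPM, others at most 1.11 CPM). In venules Ace had 62.9 CPM in 1 CLP library at 4 h and 22.4 CPM in 1 healthy library, and Agt had 200 CPM in 1 CLP library at 72 h. In glomeruli Ren1 had 1970 CPM in 1 CLP library at 4 h (others 1020 to 1090 CPM), Agt 51 CPM in 1 CLP library at 4 h, Ace 25.9 CPM in 1 CLP library at 24 h and Mme 83.5 CPM in 1 sham library at 24 h, below the others (124 to 128 CPM).

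In whole kidney, where groups varied less, Enpep had 12.6 CPM in 1 CLP mouse at 4 h (others 28.5 to 30.1 CPM) and 20 CPM in 1 sham mouse at 72 h (others 6.3 to 7.26 CPM), and Agtr1a had 31 CPM in 1 sham mouse at 4 h (others 24.5 to 25.6 CPM).

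The CLP effect itself differed between times or compartments in 3 cases. In whole kidney that on Agt was larger at 24 h than at 4 h by 1.03, and that on Ace was lower at 72 h than at 4 h by −1.56, both as differences of log2 fold changes. For Ren1 at 72 h it differed between the microdissected compartments (adjusted p = 0.000974).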

How the results depend on the processing

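The rise of Agt at 24 and 72 h and the fall of Ace at 72 h in whole kidney passed under every alternative run. Counts of member calls over the 3 times moved as follows. In whole kidney, CLP against sham gave 6 calls, 3 with only the mice of the same side of the gap in detected genes fitted and 5 to 7 without 1 mouse. Sham against healthy mice gave 2, with 0 under library totals alone or without the filter and 0 to 2 without 1 mouse, and the change with time gave 2, with 1 to 3 without 1 mouse. Healthy compartments gave 5 calls, 11 in DESeq2 and 4 to 6 without 1 mouse. For CLP against sham, glomeruli gave 0 (DESeq2 1), venules 0 (DESeq2 2) and peritubular capillaries 1 (DESeq2 3, and 0 without the filter, with the 8 libraries alone or with the same side only, and 0 to 1 without 1 mouse). For sham against healthy mice, arterioles gave 0 (DESeq2 3) and venules 0 (DESeq2 1), some of these against groups with no counts. The difference of CLP effects between compartments gave 1 call, Ren1, and 0 in DESeq2, while without the mouse as a block the 1 call was Agtr1a. Leaving out a mouse there was run at 72 h and not run at 4 and 24 h. In each comparison DESeq2 also called more of all genes tested than edgeR. The cause of these shifts was not tested.

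Mice of different groups are different animals that share a number. Same-numbered whole-kidney libraries of CLP and sham mice correlated above 0.1 in 3 of 4 pairs at 24 h, 2 of 4 at 72 h and 0 of 4 at 4 h, and no microdissected pair did. Number 1 correlated most, at 0.673 at 24 h and 0.572 at 72 h. In whole kidney 3 CLP libraries at 24 h, 3 at 72 h and 0 at 4 h correlated best with the sham library of their own number. What same-numbered mice had in common was not tested. The block by number added 1 call, Enpep in sham against healthy whole kidneys at 72 h (−1.62, adjusted p = 0.0266).

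Log2 fold changes that changed sign were near 0 or varied widely, and none had passed. By alternative, Agt in sham against healthy whole kidneys at 24 h was −0.05 and glomerular Agt in CLP against sham mice at 24 h was −0.04 under library totals. Under the block by number, glomerular Agt in CLP against sham mice at 72 h was 0.12 and arteriolar Ren1 was −0.21. Arteriolar Ren1 in sham against healthy mice at 72 h was 0.43 with RLE factors and in DESeq2, 0.58 under library totals and 0.08 with 8 libraries. Peritubular Agt in sham against healthy mice at 24 h was 0.37 with RLE factors and in DESeq2, 0.4 under library totals and 0.16 with 8 libraries. Without 1 mouse, glomerular Agt in CLP against sham mice ranged from −1.65 to 1.51 at 4 h, −1.42 to 0.63 at 24 h and −0.56 to 1.36 at 72 h, and Ren1 from −0.39 to 0.23 at 4 h and −0.16 to 0.27 at 24 h in glomeruli, −1.84 to 1.8 at 24 h and −0.48 to 1.9 at 72 h in arterioles, −0.76 to 1.19 at 24 h in venules and −1.99 to 0.05 at 4 h in peritubular capillaries. In sham against healthy mice, Agt ranged from −0.59 to 0.54 at 24 h in peritubular capillaries and from −0.12 to 0.17 at 24 h and −0.1 to 0.23 at 4 h in whole kidney, and Ren1 from −0.05 to 0.37 at 24 h and −0.07 to 0.13 at 4 h in whole kidney, −0.28 to 0.35 at 4 h in glomeruli and −1.78 to 0.87 at 72 h in arterioles. The spread between microdissected libraries limits these values.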

Other observations

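The peritubular capillary libraries at 72 h, where Agtr1a had no count in CLP mice, were also examined for other genes of the system, in a comparison where 20.5% of all genes tested passed as lower. Against sham mice, 5 of 19 tested renin cell and renin release genes were lower in CLP mice and 0 were higher, with a median log2 fold change of −2.36, against −1.28 over all genes tested. Of the further angiotensin and kinin genes 2 of 14 were lower, with a median of −1.20, of the aldosterone genes 1 of 10 and of the brush border peptidases 1 of 7. Smooth muscle and pericyte markers were lower for 4 of 7 and higher for 1, and proximal tubule markers lower for 4 of 8. These counts come from the libraries with few detected genes described above, and the part of that was not tested.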
